A study of Sus scrofa with 15 samples.

Results

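The genes described here encode enzymes that remove superoxide and peroxides: the glutathione peroxidases GPX1, GPX2, GPX3 and GPX4, the superoxide dismutases SOD1, SOD2 and SOD3, catalase (CAT) and the peroxiredoxins PRDX1 and PRDX6. They were chosen by enzyme family and symbol, 10 genes in all. Of the 10 genes, 9 were matched to a row among the 30477 genes of the count files, GPX1 was not analysed here, and 8 passed the filter on low counts, beside 14918 genes tested in all. The 9th gene, GPX2, is described by its counts.

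RNA of subcutaneous backfat from Iberian pigs was sequenced, with 1 library per pig and 5 pigs on each of 3 diets, out of 44 pigs in the feeding trial. The control group (C) ate a compound feed formulated to meet the needs of growth, and the DOP group a compound feed made with dry olive pulp. The WCOC group had a feed of its own without by-product, plus free access to a silage of wet crude olive cake and barley straw. All compound feeds were rationed to a share of free energy intake, and that share was higher in C than in DOP and WCOC. All pigs were of the Iberian genotype and about 1 year old when the biopsies were taken at the end of the growing period, and those sequenced were picked mainly for the amount and quality of their RNA. Each diet was fed in 1 pen and the ration differed between C and the other diets. By-product, ration and pen therefore cannot be told apart against C, nor diet and pen in any comparison, and p-values measure only the spread between these pigs.

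Superoxide is formed when electrons leak from the respiratory chain or are passed to oxygen by NADPH oxidases. Superoxide dismutases turn it into hydrogen peroxide, and each isoenzyme works in its own place: SOD1, with copper and zinc, in the cytosol, SOD2, with manganese, in the mitochondrial matrix, and SOD3, with copper and zinc, outside the cell. Hydrogen peroxide is then broken down by catalase in peroxisomes, by glutathione peroxidases at the expense of glutathione, and by peroxiredoxins, whose oxidised thiol is reduced by thioredoxin or, for PRDX6, with the help of glutathione. Glutathione and thioredoxin are in turn kept reduced by NADPH. In fat, GPX3 is known as a peroxidase that adipocytes secrete into plasma, and GPX4 as the enzyme that reduces lipid peroxides within membranes.

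GPX1 to GPX4 are selenoproteins: selenocysteine, the residue at their active site, is encoded by an in-frame TGA that is elsewhere a stop codon. The coding sequence around that codon is shown because it is the feature that these genes share, and it was read from the Sscrofa11.1 assembly with the RefSeq annotation, 5′ to 3′ on the coding strand, with 15 bases on each side of the TGA, which is in capitals.
GPX1: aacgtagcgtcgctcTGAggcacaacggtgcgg
GPX2: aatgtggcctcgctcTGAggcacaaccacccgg
GPX3: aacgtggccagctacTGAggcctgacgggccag
GPX4: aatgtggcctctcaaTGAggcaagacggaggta
The TGA is codon 52 of GPX1 (chromosome 13, 31917180 to 31917182), codon 40 of GPX2 (chromosome 7, 89011346 to 89011348), codon 73 of GPX3 (chromosome 16, 71984098 to 71984100) and codon 73 of GPX4 (chromosome 2, 77322633 to 77322635), and all 4 genes lie on the minus strand. Of the 33 bases, 14 are the same in all 4 genes, and GPX1 and GPX2 are the most alike pair, with 26 identical bases. All 4 genes have GGC as the codon after the TGA.

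SOD2 differs from the cytosolic SOD1 in being made with a leader that directs it to mitochondria. The first 60 coding bases of SOD2 are given for that reason, from the same assembly and annotation, 5′ to 3′, with the start codon in capitals.
SOD2: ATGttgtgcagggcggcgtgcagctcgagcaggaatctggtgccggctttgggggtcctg
These bases lie in 2 exons on the plus strand of chromosome 1, between 7679671 and 7680084, and the annotated coding sequence has 223 codons, the stop codon included.

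The libraries held 22373715 to 34745218 counts on genes. Read pairs not assigned to any gene took 23.4% to 32.8% of a library. All 10 adipocyte markers with a row were detected in every library, and their summed level was 17089 to 26242 CPM, a count scaled to the same total in every library. The skeletal muscle list (12 genes, 6 with a row, of which TNNI2 was at 0 in every library) was uneven: its sum was 44.5 to 3339 CPM in C, 32.3 to 43391 in DOP and 17.5 to 668 in WCOC, and it was highest in DOP 5, DOP 2 and DOP 4. The macrophage list, 12 of 12 genes with a row, summed to 298 to 886 CPM in C, 203 to 505 in DOP and 149 to 385 in WCOC, and no macrophage marker was at 0 in any library. The run identifiers place all WCOC libraries and C 1 to C 4 on 1 flow cell, and all DOP libraries and C 5 on another. Diet and flow cell therefore cannot be told apart in WCOC vs. DOP. In DOP vs. C they are told apart poorly, as C 5 is the only control on the flow cell of DOP. A fit with flow cell as a covariate separates diet and flow cell only through C 5 against C 1 to C 4.

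CPM values were scaled by TMM, a correction for the make-up of each library, and libraries are numbered as in the labels. For a comparison between genes, CPM was divided by the exon length of the gene in kb (RefSeq). On that scale GPX3 (638, mean of 15 libraries), CAT (600.1) and GPX4 (575) were the most abundant, at ranks 60, 67 and 71 of 11229 genes. They were followed by SOD1 (309.9), SOD3 (141), PRDX6 (133), SOD2 (99.4) and PRDX1 (84.7), the last at rank 498. The first 3 genes were not separated from each other: GPX3 was above CAT in 7 of 15 libraries and CAT above GPX4 in 9 of 15. GPX4 was above SOD1, and SOD1 above SOD3, in 15 of 15 libraries, although in both cases the ranges over libraries overlapped. SOD3 was above PRDX6 in 7 of 15 libraries, PRDX6 above SOD2 in 13 of 15 and SOD2 above PRDX1 in 9 of 15.

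**Figure D1:**
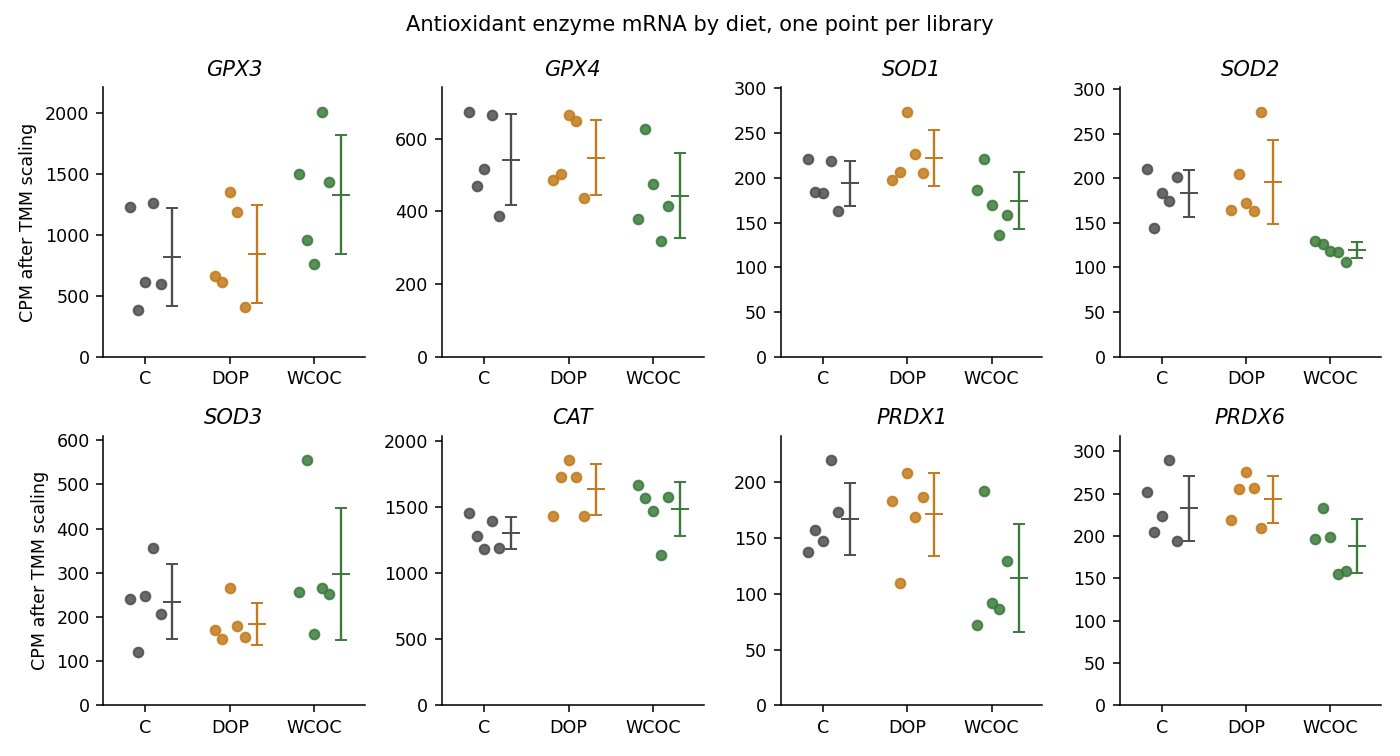
CPM after TMM scaling of the 8 tested genes in each library, by diet (C, DOP and WCOC, 5 libraries each); the bars beside the points are the mean and SD. The 5 WCOC libraries lie between 107 and 129.99 CPM for SOD2, below all other libraries, whereas in the other 7 genes the diets overlap.

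Among the dismutases, SOD2, the manganese enzyme of the mitochondrial matrix (ENSSSCG00000040317, chromosome 1, 7679352 to 7689564, plus strand), was lower in WCOC than in either of the other diets. Its level was 211, 144, 183, 175 and 202 CPM in C 1 to C 5. In DOP 1 to DOP 5 it was 165, 204, 172, 164 and 274 CPM. In WCOC 1 to WCOC 5 it was 129.99, 126, 118, 118 and 107 CPM. Every WCOC library was thus below every library of the other diets, with the lowest control (C 2) as its nearest neighbour, while C and DOP overlapped. The mean was 183 ± 26.0 CPM in C, 196 ± 46.9 in DOP and 119.7 ± 8.96 in WCOC (SD, n = 5 each).

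The difference was tested with edgeR's quasi-likelihood test, and a gene was called when its Benjamini-Hochberg adjusted p was under 0.05 and its log2 fold change (log2FC) at least 0.58 in size. SOD2 fell in WCOC vs. C (log2FC −0.61, SE 0.14, adjusted p = 0.0162), to 0.654 of the control level. It was 1 of the 8 tested antioxidant genes called in this comparison, where 6.25% of all tested genes were called (3.93% lower and 2.33% higher) and the values of 7.62% did not overlap between the diets. It also fell in WCOC vs. DOP (log2FC −0.71, SE 0.14, adjusted p = 0.00764), again as the 1 gene called of 8, beside 7.76% of all tested genes called (5.11% lower and 2.65% higher) and 8.9% without overlap. Both comparisons use the same WCOC libraries, and in WCOC vs. DOP diet and flow cell cannot be told apart. In DOP vs. C the log2FC of SOD2 was 0.10 (SE 0.14, adjusted p = 0.769).

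The fall of SOD2 lies close to the fold limit, and some fits moved it to the other side. Over all alternatives other than leaving out 1 library, its adjusted p ran from 0.000824 to 0.198 in WCOC vs. C and from 8.2e-05 to 0.425 in WCOC vs. DOP, and the log2FC stayed negative in all of them. With flow cell as a covariate the log2FC was −0.57 (adjusted p = 0.0381) in WCOC vs. C and −0.53 (adjusted p = 0.425) in WCOC vs. DOP, where that fit called 1 of all tested genes in place of 1158, and within the flow cell that holds 4 C and all WCOC libraries it was −0.58 (adjusted p = 0.0224) and still called. All 12 macrophage markers had a negative log2FC in WCOC vs. C and 6 were called. With the mean of that list as a covariate the log2FC of SOD2 was −0.67, with an adjusted p of 0.198, in a fit that called 53 of all tested genes in place of 933. The 8 fibroblast markers were also all negative in WCOC vs. C (median log2FC −0.83, 4 called) and in WCOC vs. DOP (median −0.53, 2 called), and they summed to 22963 to 34573 CPM in C, 19706 to 30951 in DOP and 14441 to 25267 in WCOC. Of the 6 tested endothelial markers all were positive in WCOC vs. C and 1 was called (median 0.37), with sums of 906 to 1131 CPM in C, 1172 to 1541 in DOP and 989 to 1611 in WCOC. With the skeletal muscle list as a covariate it was −0.53 (adjusted p = 0.0153) in WCOC vs. C and −0.51 (adjusted p = 0.0489) in WCOC vs. DOP. The highest SOD2 value, in DOP 5, belongs to the library with the most skeletal muscle RNA, and without it the log2FC of WCOC vs. DOP was −0.56 (adjusted p = 0.0105). The part of these cell types in the SOD2 difference was not otherwise tested, and in bulk tissue fewer cells of a type and less RNA per cell cannot be told apart.

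SOD1, the copper-zinc enzyme of the cytosol (ENSSSCG00000021355, chromosome 13, 195326573 to 195335273, plus strand), was 163 to 221 CPM in C, 197 to 274 in DOP and 136 to 221 in WCOC. The 3 diets overlapped. The highest value was in DOP 3 and the lowest in WCOC 4. Its log2FC was 0.20 in DOP vs. C (adjusted p = 0.482), −0.15 in WCOC vs. C (adjusted p = 0.490) and −0.35 in WCOC vs. DOP (SE 0.13, adjusted p = 0.101), so no difference passed the test. SCAF4 lies on the opposite strand and overlaps SOD1, and the strand option of the counting was not given in the sources used here, so reads of the 2 genes may not be fully separated.

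SOD3, the dismutase of the extracellular matrix (ENSSSCG00000028814, chromosome 8, 18796633 to 18802156, plus strand), was the most variable of the 3. It was 241, 119.8, 248, 356 and 206 CPM in C 1 to C 5. In DOP 1 to DOP 5 it was 170.2, 149.5, 265, 180.0 and 155 CPM. In WCOC 1 to WCOC 5 it was 256, 554, 161, 264 and 253 CPM. WCOC 2 stood alone at more than any other library, WCOC 3 was near the middle of DOP, and the diets overlapped. The log2FC of WCOC vs. DOP was 0.69 (SE 0.31, adjusted p = 0.159) and 0.34 without WCOC 2, and that of WCOC vs. C was 0.34 (SE 0.31, adjusted p = 0.504) and −0.015 without that library. Its spread within diets, an SD of 0.53 on the log2 CPM scale, was larger than that of 95.9% of the 1072 genes of similar level, against an SD of 0.25 for the median tested gene.

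When the 3 dismutases were set against each other per length, SOD1 gave 55.6% ± 5.54 of their summed level in C, 60.7% ± 2.93 in DOP and 53.4% ± 6.14 in WCOC (SD, n = 5 each). SOD2 gave 19.99% ± 2.97, 20.6% ± 5.19 and 14.2% ± 2.54 in the same order. SOD3 gave 24.4% ± 5.87, 18.7% ± 2.75 and 32.4% ± 8.02. The share of SOD2 in single libraries was 15.9% to 24.2% in C, 14.9% to 28.3% in DOP and 10.03% to 16.3% in WCOC, so the shares overlapped where the levels did not. The share of SOD3 was 15.8% to 22.7% in DOP and 21.9% to 43.6% in WCOC, where WCOC 3 was the library within the DOP range.

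Catalase, the haem enzyme of peroxisomes (CAT, ENSSSCG00000013302, chromosome 2, 26493664 to 26533881, minus strand), had its highest mean in DOP, but the difference did not pass the test after adjustment. It was 1452, 1281, 1182, 1398 and 1191 CPM in C 1 to C 5. In DOP 1 to DOP 5 it was 1433, 1730.1, 1855, 1731 and 1433 CPM. In WCOC 1 to WCOC 5 it was 1664, 1573, 1470.4, 1137 and 1578 CPM. The lowest DOP libraries, DOP 1 and DOP 5, were just below the highest control, C 1, so that C and DOP overlapped narrowly, and WCOC 4 was the lowest library of all. The mean was 1301 ± 121 CPM in C, 1636 ± 192 in DOP and 1485 ± 206 in WCOC (SD, n = 5 each).

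CAT in DOP vs. C had a log2FC of 0.33 (SE 0.12), an unadjusted p of 0.0169 and an adjusted p of 0.185 in the edgeR test. It was the only one of the 8 genes with an unadjusted p under 0.05 in that comparison, beside 17.6% of all tested genes. The other 2 comparisons gave 0.19 (WCOC vs. C, adjusted p = 0.343) and −0.14 (WCOC vs. DOP, adjusted p = 0.499). In DOP vs. C 0 of the 8 tested antioxidant genes were called by edgeR, beside 0.764% of all tested genes (0.55% lower and 0.215% higher), and 0 of 8 were without overlap, beside 3.47%. On the same counts limma-voom called 0 and DESeq2 called 1, GPX2. CAT varied little within diets: its SD of 0.18 on the log2 CPM scale was larger than that of only 16.9% of 83 genes of similar level.

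Among the glutathione peroxidases, GPX3, the secreted form (ENSSSCG00000036438, chromosome 16, 71980467 to 71989011, minus strand), differed mostly between pigs. It was 1234, 381, 611, 1266 and 600.1 CPM in C 1 to C 5. In DOP 1 to DOP 5 it was 664, 612, 1352, 1187 and 411 CPM. In WCOC 1 to WCOC 5 it was 1501, 960.1, 758, 2013 and 1433 CPM. In C and in DOP 2 libraries stood well above the other 3 (C 1 and C 4, DOP 3 and DOP 4), and the 3 highest libraries of all were WCOC 4, WCOC 1 and WCOC 5. The mean was 818 ± 405 CPM in C, 845 ± 403 in DOP and 1333 ± 493 in WCOC (SD, n = 5 each).

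The log2FC of GPX3 was 0.70 (SE 0.39, adjusted p = 0.262) in WCOC vs. C and 0.66 (SE 0.39, adjusted p = 0.289) in WCOC vs. DOP. The first was larger in size than that of SOD2, but with a wider error, and neither passed the test. In DOP vs. C it was 0.046 (SE 0.38, adjusted p = 0.969). The SD within diets of 0.68 (log2 CPM) exceeded that of 91.8% of 159 genes of similar level.

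GPX4, which reduces lipid hydroperoxides in membranes (ENSSSCG00000024052, chromosome 2, 77321568 to 77323931, minus strand), was 387 to 675 CPM in C, 437 to 666 in DOP and 319 to 628 in WCOC. The diets overlapped over most of their range. Its log2FC was 0.017 in DOP vs. C (SE 0.20, adjusted p = 0.978), −0.29 in WCOC vs. C (SE 0.20, adjusted p = 0.368) and −0.31 in WCOC vs. DOP (SE 0.20, adjusted p = 0.336). Per length, GPX3 made up 44.3% ± 8.49 of the summed level of GPX2 to GPX4 in C, 44.7% ± 7.74 in DOP and 61.6% ± 13.96 in WCOC (SD, n = 5 each), where single libraries ran from 46.5% to 78.2% and overlapped the other diets.

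GPX2, the glutathione peroxidase best known from the lining of the gut (ENSSSCG00000002279, chromosome 7, 89007636 to 89011620, minus strand), had at most 2 counts in any library outside 3 of the DOP libraries. A count of 0 allows up to 3 counts at this depth. The counts were 1, 0, 2, 1 and 1 in C 1 to C 5 and 2, 1, 0, 0 and 0 in WCOC 1 to WCOC 5. In DOP 1 to DOP 5 they were 0, 16, 0, 12 and 189. DOP 5 alone held 87.1% of the 217 counts of its diet, and DOP 1 and DOP 3, at 0, were no higher than the control libraries. The mean was 1.53 ± 2.84 CPM in DOP, 0.0370 ± 0.0237 in C and 0.0206 ± 0.0299 in WCOC (SD, n = 5 each).

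With an exact two-sided permutation test of the mean CPM over all 252 splits of 5 against 5 libraries, p was 0.167 for DOP vs. C, 0.167 for WCOC vs. DOP and 0.397 for WCOC vs. C, where the smallest p possible is 0.00794. Count models treat this gene otherwise: DESeq2 gave a log2FC of 5.35 (adjusted p = 0.0462) for DOP vs. C and −6.23 (adjusted p = 0.00735) for WCOC vs. DOP, and edgeR without a filter gave 5.17 (adjusted p = 0.115) and −5.98 (adjusted p = 0.0263). Without DOP 5 the difference in mean CPM between DOP and C was 0.227 (exact permutation p = 0.183). Without DOP 1 or without DOP 3, both at 0 counts, it was 1.87 (exact permutation p = 0.0476). The 3 DOP libraries with GPX2 counts above 2 are the 3 with the most skeletal muscle RNA: the list summed to 43391 CPM in DOP 5, 9420 in DOP 2 and 5460 in DOP 4, against 32.3 and 210 CPM in DOP 1 and DOP 3. The epithelium list, with 9 of 12 genes having a row, summed to 13.9 CPM in DOP 5 and to 13.9 to 29.9 CPM over the DOP libraries. It summed to 27.3 to 60.1 CPM in C and 30.2 to 135 in WCOC. CDH1, KRT1 and KRT10 reached 46.5, 59.9 and 60.6 CPM, and no other gene of the list exceeded 6.59 CPM (KRT8). The part of muscle or epithelial RNA in the GPX2 counts was not tested. CHURC1 overlaps GPX2 on the opposite strand, which is a further limit on these counts.

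**Figure D2:**
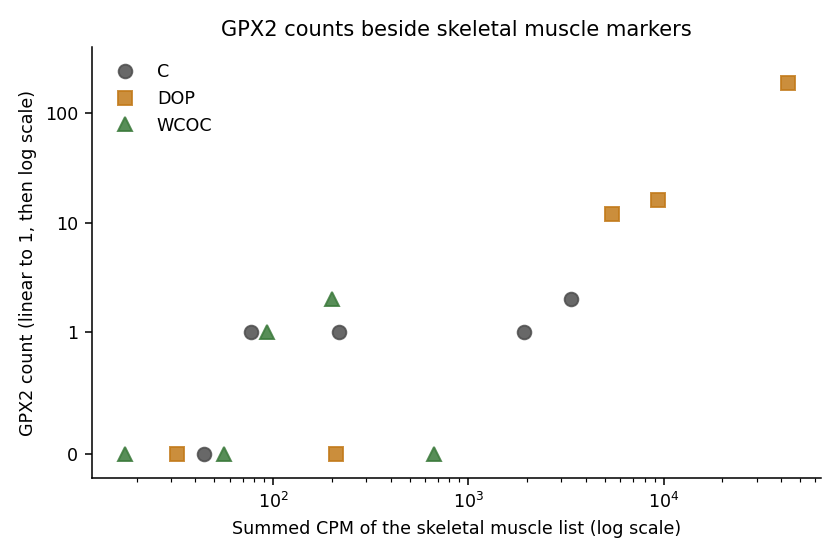
GPX2 counts per library against the summed CPM of the 6 skeletal muscle genes with a row, with symbols by diet; the horizontal axis is logarithmic and the vertical axis is linear up to 1 and logarithmic above. DOP 5, DOP 2 and DOP 4 lie at the upper right with 189, 16 and 12 counts, and all other libraries have 0 to 2.

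PRDX1, a cytosolic peroxiredoxin that is reduced by thioredoxin (ENSSSCG00000003914, chromosome 6, 165847390 to 165859918, plus strand), had its lowest values in WCOC. It was 138, 158, 148, 219.6 and 173 CPM in C 1 to C 5. In DOP 1 to DOP 5 it was 183, 109.9, 208, 169 and 186 CPM. In WCOC 1 to WCOC 5 it was 71.7, 192, 91.8, 86.6 and 129 CPM. WCOC 1, WCOC 3 and WCOC 4 were below all libraries of the other diets, WCOC 5 was below all but DOP 2, and WCOC 2 lay among the highest. The log2FC was −0.55 (SE 0.24, adjusted p = 0.164) in WCOC vs. C, −0.58 (SE 0.24, adjusted p = 0.129) in WCOC vs. DOP and 0.036 (SE 0.24, adjusted p = 0.961) in DOP vs. C. In 14 of 15 fits that left out 1 library, PRDX1 stayed uncalled in both WCOC comparisons. Without WCOC 2 it was called in both, with a log2FC of −0.83 (adjusted p = 0.0195) against C and −0.86 (adjusted p = 0.0193) against DOP. That fit called 1163 of all tested genes in place of 933 against C, and 1066 in place of 1158 against DOP.

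PRDX6, which also reduces phospholipid peroxides (ENSSSCG00000022742, chromosome 9, 115857629 to 115868898, plus strand), was 194 to 289 CPM in C, 209 to 276 in DOP and 155 to 233 in WCOC. WCOC 4 and WCOC 5 were below every library of the other diets. WCOC 1 and WCOC 3 lay near the lower end of those diets, and WCOC 2, at 233 CPM, lay in their middle. Its log2FC was −0.31 (SE 0.13, adjusted p = 0.165) in WCOC vs. C, −0.37 (SE 0.13, adjusted p = 0.0887) in WCOC vs. DOP and 0.062 (SE 0.13, adjusted p = 0.855) in DOP vs. C. A predicted locus overlaps it on the opposite strand, with the same limit as for SOD1.

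**Figure D3:**
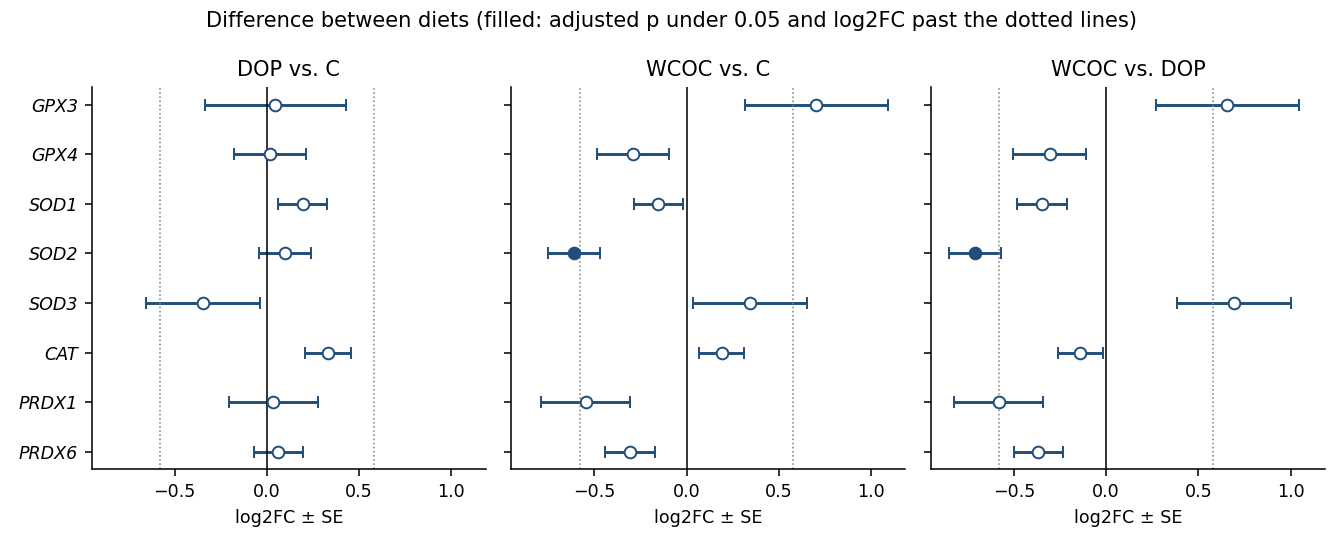
log2FC with its SE of the 8 tested genes in the 3 comparisons, from edgeR; dotted lines mark a log2FC of 0.58 in size and filled points passed both limits. SOD2 is filled in WCOC vs. C (−0.61) and WCOC vs. DOP (−0.71), and all points of DOP vs. C are open.

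The median log2FC of the 8 genes was 0.054 in DOP vs. C, −0.22 in WCOC vs. C and −0.33 in WCOC vs. DOP, where the medians over all tested genes were 0.011, 0.0043 and 0.00067. The log2FC was negative for 1, 5 and 6 of the 8 genes in that order. An unadjusted p under 0.05 was found for 3 of 8 in WCOC vs. C (26.4% of all tested genes) and for 5 of 8 in WCOC vs. DOP (28.1%). The share of the variance of log2 CPM that lay between diets was 68.9% for SOD2, 41.6% for CAT and 20.1% to 41.2% for the other 6 genes, beside a median of 25.8% over all tested genes.

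The genes whose log2 CPM followed single members most closely, after the mean of each diet was subtracted and over 15 libraries, are given as a description. For SOD2 they included ZNF641 (r = 0.87) and CTDNEP1 (r = 0.85). For CAT they included GUCY2C (r = 0.94) and MRAS (r = 0.91). For GPX3 they were MYO1C (r = 0.88), RAB13 (r = 0.88) and CERS4 (r = 0.86). These are among the 3 highest for each gene of 11955 tested genes with a symbol, the points share libraries and depth, and no p is attached to them.

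The enzymes depend on other genes that regenerate or supply them, and 9 lists of such genes were examined (144 genes, 127 with a row, 117 tested). In DOP vs. C edgeR called 0 of 117 genes, beside 0.764% of all tested genes. DESeq2, run without the filter, called 7 of the 124 list genes with any count. Over all genes it called 518 of the 22920 with any count. In WCOC vs. C 13 of 117 were called, 10 lower and 3 higher, beside the 6.25% of all tested genes given above. In WCOC vs. DOP 15 of 117 (12.8%) were called, 12 lower and 3 higher, beside 7.76%. The count in WCOC vs. C was 0 with the macrophage list as a covariate and that in WCOC vs. DOP was 0 with flow cell as a covariate. These are fits in which the calls over all genes went from 933 to 53 and from 1158 to 1. The log2FC of ME1 in WCOC vs. C was −1.72 (adjusted p = 0.0908) with the macrophage covariate and −1.55 without it. Of the 27 calls that the rule for named genes covers, 13 held in each of 15 fits that left out 1 library, among them those of ME1, NNT and DUOX2 in both WCOC comparisons, of TXNRD1, MAFG and ABCD2 in WCOC vs. C, and of IDH1, PRDX3 and NOX5 in WCOC vs. DOP. The other 14 were lost without at least 1 library. In WCOC vs. C, PEX11A and NOX5 held in 7 of the 15 fits, GPX7 in 8 and PRDX3 in 10. In WCOC vs. DOP, GPX7 held in 9 and ABCD2 in 10.

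**Figure D4:**
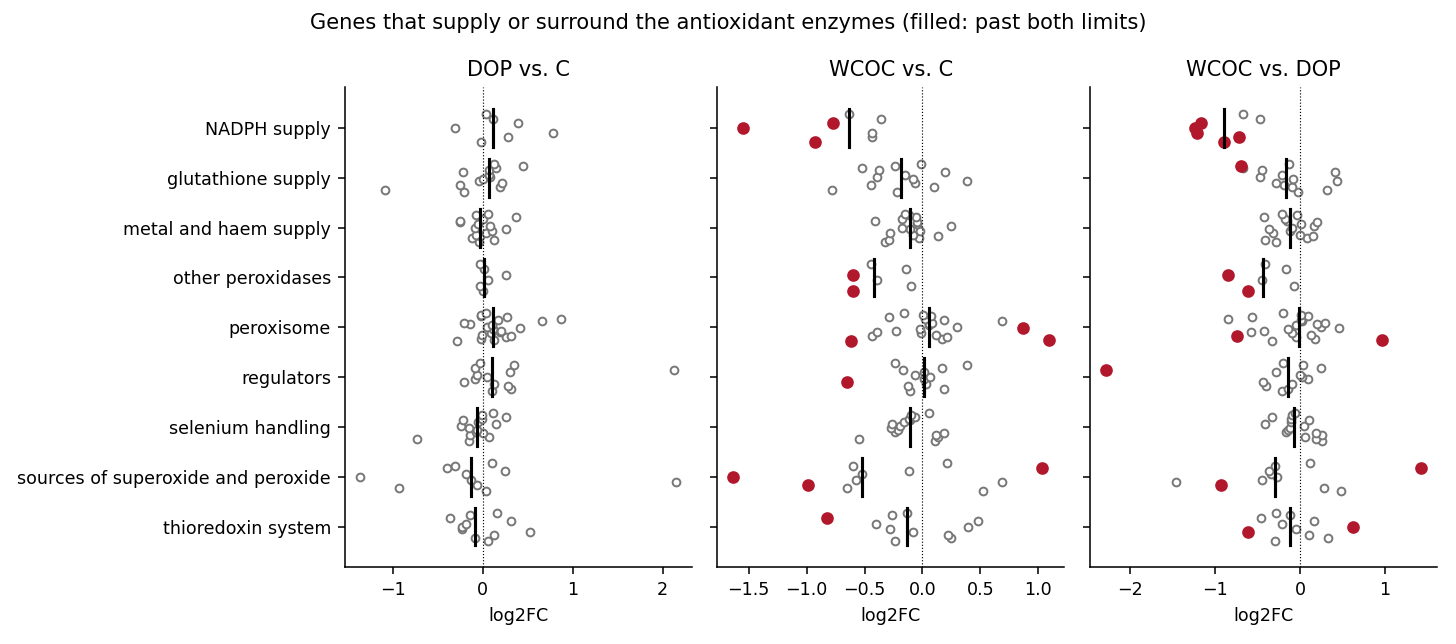
log2FC from edgeR of the 117 tested genes in 9 lists, for the 3 comparisons; each point is a gene, filled points passed both limits and black bars are list medians. Filled points are absent in DOP vs. C, and the median of the NADPH supply list is −0.64 in WCOC vs. C and −0.90 in WCOC vs. DOP.

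The genes that supply NADPH, the reducing power behind glutathione and thioredoxin, had the lowest median of the 9 lists in both WCOC comparisons. In WCOC vs. C all 7 tested genes had a negative log2FC (median −0.64) and 3 fell. ME1, the cytosolic malic enzyme, went from 1660 ± 523 CPM in C to 569 ± 271 in WCOC (log2FC −1.55, SE 0.30, adjusted p = 0.00739). NNT, the transhydrogenase of the mitochondrial inner membrane, had a log2FC of −0.77 (adjusted p = 0.0163) and its values did not overlap between the diets. In WCOC vs. DOP all 7 were again negative (median −0.90) and 5 fell, among them NNT (−1.16, adjusted p = 0.00227), IDH1 (−0.73, adjusted p = 0.00812), ME1 (−1.23, adjusted p = 0.0189) and IDH2 (−1.21, adjusted p = 0.0321), of which the last was named after its value was seen. In DOP vs. C the median was 0.11 and none was called.

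Among the other peroxidases, all 6 tested genes had a negative log2FC in WCOC vs. C (median −0.42) and in WCOC vs. DOP (median −0.43), and the same 2 fell in both. PRDX3, the peroxiredoxin of the mitochondrial matrix and thus of the compartment of SOD2, was 389 ± 57.8 CPM in C, 464 ± 26.7 in DOP and 257 ± 65.1 in WCOC (SD, n = 5 each). Its values did not overlap between WCOC (153 to 324) and either C (329 to 473) or DOP (421 to 490), and its log2FC was −0.60 (SE 0.16, adjusted p = 0.0318) and −0.85 (SE 0.16, adjusted p = 0.00620). GPX7, a peroxidase of the endoplasmic reticulum, had a log2FC of −0.60 (adjusted p = 0.0330) and −0.61 (adjusted p = 0.0294). PRDX3 was also the most abundant gene of this list.

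In the thioredoxin system, TXNRD1, the cytosolic reductase that serves PRDX1, fell in WCOC vs. C from 203 ± 41.5 to 115 ± 20.1 CPM (log2FC −0.82, SE 0.19, adjusted p = 0.0153), and the values did not overlap. In WCOC vs. DOP the sestrin SESN3 was higher (0.62, adjusted p = 0.00757) and SESN1 lower (−0.61, adjusted p = 0.0104), so 2 of 11 tested genes of the list were called, in opposite directions. SESN1 was 239 to 292 CPM in DOP, above all libraries of C (170 to 210) and WCOC (120 to 213), which overlapped. Mean SESN3 was 93.7 CPM in C, 79.8 in DOP and 123 in WCOC. In the glutathione supply list edgeR and limma-voom called 1 of 14 tested genes, in WCOC vs. DOP: SLC3A2, the heavy chain of the cystine transporter (−0.69, adjusted p = 0.0240). Its mean was 76.0 CPM in C, 104 in DOP and 64.3 in WCOC, and the call was lost without DOP 5, WCOC 4 or WCOC 5. DESeq2 called SLC3A2 and SLC25A39 in WCOC vs. DOP, and CHAC1 in both DOP vs. C and WCOC vs. C. SLC25A39 and CHAC1 are named after their values were seen. None of the 16 tested genes of selenium handling and none of the 17 of metal and haem supply was called in any comparison by edgeR or limma-voom, and DESeq2 called 1, LRP8 in DOP vs. C, named after its value was seen. Their medians lay between −0.12 and −0.026, and 3 to 5 genes in each list and comparison had an unadjusted p under 0.05.

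Peroxisomal genes, the surroundings of catalase, did not move one way. In WCOC vs. C, ABCD2, a transporter of very long chain acyl-CoA, rose (log2FC 1.09, adjusted p = 0.0175), as did PEX11A, a factor of peroxisome division (0.87, adjusted p = 0.0395), and 1 gene fell. In WCOC vs. DOP, ABCD2 rose (0.96, adjusted p = 0.0271) and 1 gene fell. The median of the 22 tested genes was 0.11 in DOP vs. C, 0.059 in WCOC vs. C and −0.014 in WCOC vs. DOP.

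Of the 11 tested genes that make superoxide or hydrogen peroxide, 3 were called in WCOC vs. C (2 lower and 1 higher) and 2 in WCOC vs. DOP. DUOX2 fell in WCOC vs. C (−0.99, adjusted p = 0.0122) and in WCOC vs. DOP (−0.93, adjusted p = 0.0150), at 3.24 ± 0.388 CPM in WCOC. NOX5, the calcium-activated oxidase, rose in both (1.03, adjusted p = 0.0361, and 1.43, adjusted p = 0.00871), to 10.998 ± 2.42 CPM in WCOC. The median of the list was −0.52 in WCOC vs. C.

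Among the regulators, MAFG, a small MAF protein that pairs with NRF2 on antioxidant response elements, fell in WCOC vs. C from 22.4 ± 2.72 to 14.2 ± 2.17 CPM (log2FC −0.65, adjusted p = 0.00369), without overlap. PPARGC1A, the coactivator of mitochondrial biogenesis, was called lower in WCOC vs. DOP by edgeR (−2.29, adjusted p = 0.0438). DESeq2 called it there and in DOP vs. C, and limma-voom in no comparison. It ranged from 0.201 to 9.80 CPM in DOP, 0.431 to 0.987 in C and 0.472 to 0.947 in WCOC. Among the 10 libraries with at most 1000 CPM of the skeletal muscle list (3 C, 2 DOP and 5 WCOC, a subset chosen after seeing the data) its log2FC in WCOC vs. DOP was 0.44 (adjusted p = 0.800). The edgeR call was also lost without any of 13 of the 15 libraries, DOP 2, DOP 4 and DOP 5 among them. The other 11 tested regulators were not called in any comparison by edgeR, limma-voom or DESeq2, and NFE2L1, the most abundant, was at 451 ± 54.8 CPM in C, 426 ± 21.6 in DOP and 456 ± 52.3 in WCOC.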

How the data were processed

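The deposited values are raw read pair counts per Ensembl gene, neither normalized nor pooled. The authors aligned untrimmed pairs to Sscrofa11.1 with HISAT2, set as strand-specific, and counted them with HTSeq-count, after a check with FastQC; tool versions, the annotation release and the strand option of the counting are not given in the sources used here. The 5 summary lines of each file stayed out of library sizes and tests. CPM and log2 values were computed here.

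The test was that of edgeR 4.0.16 (R 4.3.3): filterByExpr (14918 genes), TMM, 1 mean per diet over all 15 libraries, the quasi-likelihood test, two-sided, Benjamini-Hochberg over all tested genes. log2 CPM used a prior count of 1. GPX2, which the filter dropped, had an exact permutation test. The workflow was tested on simulated data. Alternatives were DESeq2 1.42.0, limma-voom (limma 3.58.1), other scaling and filters, covariates, a replicate block, and each library left out. Symbols (14864 IDs matched), positions and exon lengths came from RefSeq for the same assembly.

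The members and lists were chosen with earlier results of these data known. Named were all members, up to 4 called genes per list and comparison by adjusted p, the most abundant gene of a list where stated, and for SOD2, GPX3 and CAT the 3 genes of highest correlation. A few genes that this rule covers are not reported here. No pair of libraries agreed within sampling noise. The replicate numbers did not pair the libraries.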

Additional observations from a re-analysis of the deposited data

Results flagged for a closer look

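In all, 3 values stood apart from the other libraries of their diet by Dixon's gap test, among 27 groups of 5 libraries examined, and chance alone flags about 1 in 20 groups. GPX2 was at 6.59 CPM in DOP 5, where the next DOP library was at 0.604 CPM. SOD3 was at 265 CPM in DOP 3, where the next was at 180.0 CPM. SOD3 was at 554 CPM in WCOC 2, where the next was at 264 CPM.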

How the results depend on the processing

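The antioxidant genes called numbered 0 in DOP vs. C, 1 in WCOC vs. C and 1 in WCOC vs. DOP. DESeq2 called 1 (GPX2) in DOP vs. C and 2 in WCOC vs. DOP (GPX2 and SOD2), and edgeR without a filter called 2 there. In WCOC vs. C the count was 0 with flow cell or with the adipocyte, macrophage or skeletal muscle list as a covariate. In WCOC vs. DOP it was 0 with flow cell or the skeletal muscle list as a covariate. Among libraries with a skeletal muscle sum of at most 1000 CPM, a choice made after seeing the data, it was 0 in both. Calls over all genes in these fits were 680, 764, 53 and 893 in place of 933 for the covariates of WCOC vs. C, 1 and 454 in place of 1158 for those of WCOC vs. DOP, and 354 and 92 in the subset. The cause was not tested. With each library left out the count of antioxidant genes called ran from 0 to 2 in WCOC vs. C (0 without C 1, C 5 or WCOC 5, 2 without WCOC 2). Calls over all genes in those fits were 845, 671, 762 and 1163, in place of 933. In WCOC vs. DOP the count ran from 0 to 2 (0 without DOP 5, 2 without WCOC 2), in fits with 699 and 1066 calls over all genes in place of 1158.

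List genes called in DOP vs. C (0) became 7 with DESeq2, 1 with flow cell as a covariate and 0 to 1 with a library left out. Calls over all genes in that comparison were 518, 170 and 0 to 200 in the same order, in place of 114. In WCOC vs. C (13) they became 0 with the macrophage covariate, 4 in the subset low in skeletal muscle and 6 to 14 with a library left out (6 without WCOC 1, 8 without C 4 or WCOC 4). In WCOC vs. DOP (15) they became 0 with flow cell, 25 without a fold limit, 1 in that subset and 8 to 19 with a library left out (8 without WCOC 4). Calls over all genes in WCOC vs. C were 53 with the macrophage covariate and 354 in the subset, in place of 933. They were 468 without WCOC 1, 842 without C 4, 596 without WCOC 4 and 468 to 1163 over all fits that left out a library. In WCOC vs. DOP they were 1 with flow cell, 1842 without a fold limit and 92 in the subset, in place of 1158. They were 700 without WCOC 4 and 639 to 1291 over all fits that left out a library.

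The difference in GPX2 of DOP vs. C was 0.227 to 1.87 CPM with a library left out and −0.0240 in the subset low in skeletal muscle. For WCOC vs. DOP it was −1.89 to −0.243 and 0.0206. The 2 DOP libraries in that subset are those with 0 counts, so the choice of libraries set these signs and nothing is read from them. DESeq2 gave a log2FC of 5.35 and −6.23, and edgeR without a filter −5.98 in the second.

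Some small differences in DOP vs. C changed sign: GPX3 with the adipocyte (−0.039) or macrophage (−0.18) covariate, GPX4 with the adipocyte covariate (−0.042), PRDX1 with flow cell (−0.017), and SOD2 with flow cell (−0.043), the skeletal muscle covariate (−0.025) or the low-muscle subset (−0.049). SOD3 in WCOC vs. C was −0.022 with the adipocyte covariate and PPARGC1A in WCOC vs. DOP was 0.44 in that subset. With a library left out, the log2FC in DOP vs. C ran from −0.20 to 0.26 for GPX3, −0.083 to 0.10 for GPX4, −0.053 to 0.15 for PRDX1 and −0.057 to 0.15 for SOD2, and SOD3 in WCOC vs. C from −0.015 to 0.54.

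Same-numbered libraries did not deviate together (correlations from −0.495 to 0.345 over the 3 comparisons), so the replicate block is only an alternative. With it 7 list genes were called in WCOC vs. C, where calls over all genes were 473 in place of 933. Each antioxidant count stayed as given with that block. Of the 9 antioxidant genes with a row, GPX2 is the one with counts at or near 0.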
